A study of Sus scrofa with 79 samples.

Results

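Interferon-induced antiviral genes were followed on 1-colour Agilent pig arrays in blood, jejunum and ileum of pigs that differed in an early-life treatment. The genes were chosen by name, as MX1 and 9 further genes that interferon switches on (MX2, OAS1, OAS2, OASL, RSAD2, ISG15, IFIH1, EIF2AK2 and GBP1), and their probes by the RefSeq name of each probe. Of the 10 genes, 9 had a probe and OAS1 had none, which left 21 of 43603 probes and 9 of 2389 genes with a symbol. MX1 and OAS2 had 5 probes each, GBP1 had 3, IFIH1 and RSAD2 had 2, and MX2, OASL, ISG15 and EIF2AK2 had 1. MX1 was taken up because its difference between treatments in the ileum of day 8 was known, so the treatment comparisons of that tissue and day are a description and carry no test. Jejunum and blood of day 8 come from the same animals, so that their values are no independent support of that difference either.

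Interferons are signal proteins that cells release when they detect viral nucleic acid or when lymphocytes are activated. Type I and type III interferons bind their receptors and act through the kinases JAK1 and TYK2 on transcription factors that switch on a large set of genes, while interferon gamma acts on a partly overlapping set. The products of these genes block viral entry, RNA stability, translation or assembly, and some of them, such as IFIH1, are sensors that raise the next round of interferon. In the gut these genes are held at a basal level by the microbiota and are readily raised by enteric viruses. In the pig genome MX1 and MX2 are neighbouring genes, as are OAS1 and OAS2.

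The treatments T1, T2 and T3 were compared in piglets that stayed with their own sow. T1 piglets were the undisturbed controls, handled for the blood sample of day 8, T2 piglets received 0.1 ml of the antibiotic tulathromycin under the skin of the neck on day 4 (2.5 mg/kg), and T3 piglets received the same injection together with docking, clipping and weighing on that day, so that every T3 pool carried the antibiotic as well. Each array held RNA of 1 pool of 4 piglets, whole blood was taken on day 8, and jejunum and ileum were taken on days 8, 55 and 176. In all, 79 arrays were analysed, 12 of blood and 11 or 12 of each tissue and day, with 4 pools in a group, or 3 in the ileum of T2 on days 8 and 55, the jejunum of T2 on days 55 and 176 and the ileum of T3 on day 176. The pools of day 8 in blood, jejunum and ileum came from the same animals, and pooled, bulk tissue cannot tell fewer cells of a type apart from less RNA per cell.

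On a blood array 34.8 to 44.1% of the spots were well above background, and on an intestinal array 42.4 to 75.2%. The 79 arrays lay on 11 slides and were read in 4 scan sessions. Day 8 tissues, day 55 jejunum with blood, day 55 ileum and all of day 176 each made up 1 session, so that age and scan session cannot be told apart, and each group lay on 1 slide. The array of jejunum T2 pool 8 of day 176 stood apart (median correlation with its own group 0.855), and values that rest on it are given with and without it. The names of the tissue arrays of days 8 and 55 were not the same in both deposited sources. In the authors' table of normalized values the columns named for these tissues held the values of arrays which the scanner files give to another tissue or day, for 44 of the 45 arrays, with pool and treatment the same in all 44. Jejunum of day 8 stood there as ileum of day 8, ileum of day 8 as ileum of day 55, ileum of day 55 as jejunum of day 55, and jejunum of day 55 as jejunum of day 8. The remaining array, jejunum T2 pool 8 of day 8, matched no column, and for blood and day 176 both sources had the same names. The paper left out 1 jejunum and 1 ileum sample after quality control and does not name them. Jejunum T2 pool 8 of day 8 was kept here. Its median correlation with its own group was 0.955, the lowest of the jejunum arrays of day 8. Names of the scanner files were used here. In the authors' table the median over the 22 columns that hold the day 8 arrays by these names was 0 for 100% of the probes, against 6% over the 23 columns named for day 8. Over the 22 columns that hold the day 55 arrays the share was 0.4%, against 0.7% over the 22 named for day 55. The names of day 55 are therefore not settled by this share. A comparison of treatments within 1 tissue and day sets the same arrays against each other under both sources, with another name for the tissue and day, and was not fitted again under the authors' names. Comparisons of ages and of tissues change, and their calls and counts under the authors' names are given beside those under the scanner names.

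The epithelial genes EPCAM, CDH1, KRT8, FABP2, LGALS4 and ANPEP were present in all intestinal arrays and low in blood. CD79A, a part of the B cell receptor and high where the Peyer's patches of the ileum are, was higher in ileum than in jejunum on day 55 (median log2 12.05 against 8.03) and on day 176 (11.65 against 7.38), but not on day 8 (5.84 against 5.90). The bile acid binding protein FABP6, a defining gene of the ileum, did not separate the tissues of day 8, nor those of the later days. Its medians in ileum and jejunum were 18.04 and 17.79 on day 55 and 18.46 and 18.09 on day 176. On day 8 it ranged over 10.53 log2 units among the jejunum pools, and the ileum and jejunum of a pool differed by at most 1.61. By the scanner names, only 0.714% of 32915 genes differed between the tissues of day 8. On days 55 and 176 the shares were 32.9% and 22.7%. By the authors' names the shares of days 8, 55 and 176 were 29.9%, 40.1% and 22.8%. There the ileum of day 55 against that of day 8 had few differences, 0.446% of all genes. The values of CD79A and FABP6 above go by the scanner names too. The fit behind these shares took the jejunum and ileum arrays of a pool as independent. The tissues of day 8 are therefore set side by side below and are not read as independent support of each other.

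On day 8, the mean of the T3 pools of the jejunum was above those of T1 and T2 for 8 of the 9 antiviral genes, GBP1 being the exception, and no gene passed the test. The threshold for a call was an adjusted p of 0.05, over all genes of the comparison, together with a 1.5-fold difference. In T3 vs. T1, whose arrays lay on separate slides, the 9 genes had a median log2 difference of 1.25 beside -0.01 for all genes. With limma 0 of the 9 were called, where 0% of all 28236 genes were called. In T3 vs. T2, whose arrays lay on 1 slide, all 9 differences were positive with a median of 1.51, 0 genes were called, and 0% of all genes were called. In T2 vs. T1 the median was -0.30, with 3 positive differences, 0 calls, and 0.0212% of all genes called. The medians of T3 vs. T2 and T2 vs. T1 are the values of OAS2, which were 1.01 and 0.21 without T2 pool 8. T3 vs. T1 and T3 vs. T2 share the T3 pools. Unadjusted p-values were under 0.05 for 7 genes in T3 vs. T1, 7 in T3 vs. T2 and 0 in T2 vs. T1, beside 3.41%, 3.89% and 7.16% of all genes.

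MX1 and MX2 encode dynamin-like GTPases that trap viral nucleocapsids. In jejunum the log2 signal of MX1 was 13.49, 12.40, 12.95 and 13.58 in the T1 pools, 13.38, 12.93, 13.13 and 13.04 in the T2 pools, and 14.61, 14.91, 14.73 and 13.93 in the T3 pools. All T3 pools lay above all T1 and T2 pools, which overlapped each other. The difference of T3 vs. T1 was 1.44 ± 0.34 (log2, SE, 2.71-fold, limma, adjusted p = 0.567), and its 5 probes spanned 1.12 to 1.74. Whether the probes of MX1 and MX2 also bind the other transcript was not tested. In ileum MX1 was 13.17, 11.99, 11.95 and 13.60 in T1, 13.15, 13.04 and 12.75 in T2, and 14.39, 14.84, 14.29 and 13.86 in T3, again without overlap between T3 and the others. The T3 arrays of the ileum of day 8 lay on another slide than the T1 and T2 arrays, so that T3 and slide cannot be told apart there. For MX2, the jejunum pools were at 10.28, 8.77, 9.45 and 11.23 in T1, at 9.67, 9.13, 9.27 and 9.68 in T2, and at 12.27, 12.12, 12.58 and 10.61 in T3. T3 pool 4 fell within the T1 pools and above all T2 pools. MX2 differed by 1.96 ± 0.53 in T3 vs. T1 (adjusted p = 0.825) and by 2.46 ± 0.53 in T3 vs. T2 (5.49-fold, adjusted p = 0.515), which was the lowest adjusted p of the 9 genes in the jejunum of day 8.

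The OAS family makes the messenger 2-5A, which activates RNase L to cut RNA, and OASL is a relative without that activity that enhances the sensor RIG-I. OAS2 in jejunum was 11.14, 10.81, 10.96 and 11.50 in T1, 11.37, 11.29, 11.28 and 9.29 in T2, and 12.58, 12.39, 12.66 and 11.65 in T3. The T3 pools again lay above the others, and T2 pool 8 was low by itself. T3 vs. T1 was 1.22 ± 0.40 (adjusted p = 1), and T3 vs. T2 was 1.51 ± 0.40 with T2 pool 8 and 1.01 without it. OASL varied most among pools of 1 treatment, with 12.14, 8.14, 10.99 and 12.95 in T1, 9.44, 10.70, 9.10 and 9.09 in T2, and 14.05, 11.74, 13.59 and 11.50 in T3. The T3 and T1 pools overlapped, whereas all T3 pools lay above all T2 pools. The differences were 1.67 ± 1.01 in T3 vs. T1 and 3.14 ± 1.01 in T3 vs. T2 (8.80-fold, adjusted p = 0.981).

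RSAD2 encodes viperin, which makes a chain-terminating nucleotide, and ISG15 is a ubiquitin-like protein that is attached to other proteins. RSAD2 in jejunum was 11.10, 9.69, 10.47 and 12.38 in T1, 10.95, 10.85, 10.52 and 10.50 in T2, and 12.72, 12.80, 12.25 and 12.03 in T3. ISG15 was 16.84, 15.32, 16.06 and 17.56 in T1, 16.21, 16.39, 16.10 and 15.76 in T2, and 18.21, 17.61, 17.58 and 17.37 in T3. For both genes T1 pool 12 reached into the T3 pools, and the T2 pools lay below all T3 pools. In T3 vs. T1, RSAD2 differed by 1.54 ± 0.47 and ISG15 by 1.25 ± 0.42, each with an adjusted p of 1.

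IFIH1 encodes MDA5, a sensor of long double-stranded RNA, and EIF2AK2 encodes PKR, a kinase that stops translation when it binds such RNA. IFIH1 in jejunum spanned 9.65 to 10.97 in T1, 10.06 to 10.68 in T2 and 10.64 to 11.05 in T3, so that the groups overlapped (T3 vs. T1 0.60 ± 0.24, adjusted p = 1). EIF2AK2 was 11.77, 11.34, 11.68 and 11.65 in T1, 12.31, 11.66, 11.96 and 12.12 in T2, and 12.52, 12.82, 12.45 and 12.36 in T3, with all T3 pools above the rest. GBP1, a GTPase that coats intracellular pathogens and depends mostly on interferon gamma, showed no such order, with 12.51 to 13.44 in T1, 12.05 to 13.20 in T2 and 12.22 to 13.09 in T3. Its difference in T3 vs. T1 was -0.15 ± 0.30, and its 3 probes spanned -0.26 to 0.04.

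Pools without overlap between groups were counted beside all genes. In T3 vs. T1 of the jejunum, 3 of the 9 genes (MX1, OAS2 and EIF2AK2) had all T3 pools above all T1 pools, as had 1.91% of all genes. In T3 vs. T2, 7 of the 9 (all but IFIH1 and GBP1) were without overlap, beside 1.14% of all genes, and in T2 vs. T1 none of the 9, beside 3.11%. In ileum, the values that led to the choice of MX1, T3 vs. T1 was positive for all 9 genes with a median of 1.5, from 0.27 for GBP1 to 1.75 for MX2, and 1.07% of all genes were called. There 4 genes were without overlap (MX1, OAS2, IFIH1 and EIF2AK2), beside 5.16% of all genes. In T3 vs. T2 of the ileum the median was 1.30 and 7 genes were without overlap (all but EIF2AK2 and GBP1), beside 6.86%, and in T2 vs. T1 the median was -0.04, where 0.0283% and 0.418% of all genes were called. The counts of the ileum rest on the values used for the choice and those of the jejunum on the same animals, and nothing is read from either.

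Pools of 1 treatment differed among themselves. In jejunum, T1 pool 10 was the lowest T1 pool for 8 of the 9 genes and T1 pool 12 the highest for 8, and T3 pool 4 was the lowest T3 pool for 7. After the treatment means were removed, the jejunum and ileum values of 11 pools had a correlation of 0.99 for OASL, 0.97 for ISG15, 0.95 for RSAD2, 0.90 for GBP1, 0.87 for MX2, 0.76 for MX1 and 0.66 for OAS2. EIF2AK2 was at 0.27 and IFIH1 at -0.08, and over all genes the median was 0.10 and the 90th percentile 0.67. The points share the animals of a pool, the scan session and, in part, the slide. Other genes of the pools moved too. The B cell list (2 genes) spanned 4.34 to 9.92 in the jejunum of T1, 4.06 to 5.58 in T2 and 4.90 to 10.35 in T3, the ileum list (2 genes) 10.10 to 14.76, 9.83 to 12.39 and 11.37 to 14.85, and the myeloid list (4 genes) 10.41 to 11.52, 9.44 to 10.04 and 9.95 to 10.84. Their part in the values of the antiviral genes was not tested.

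**Figure D1:**
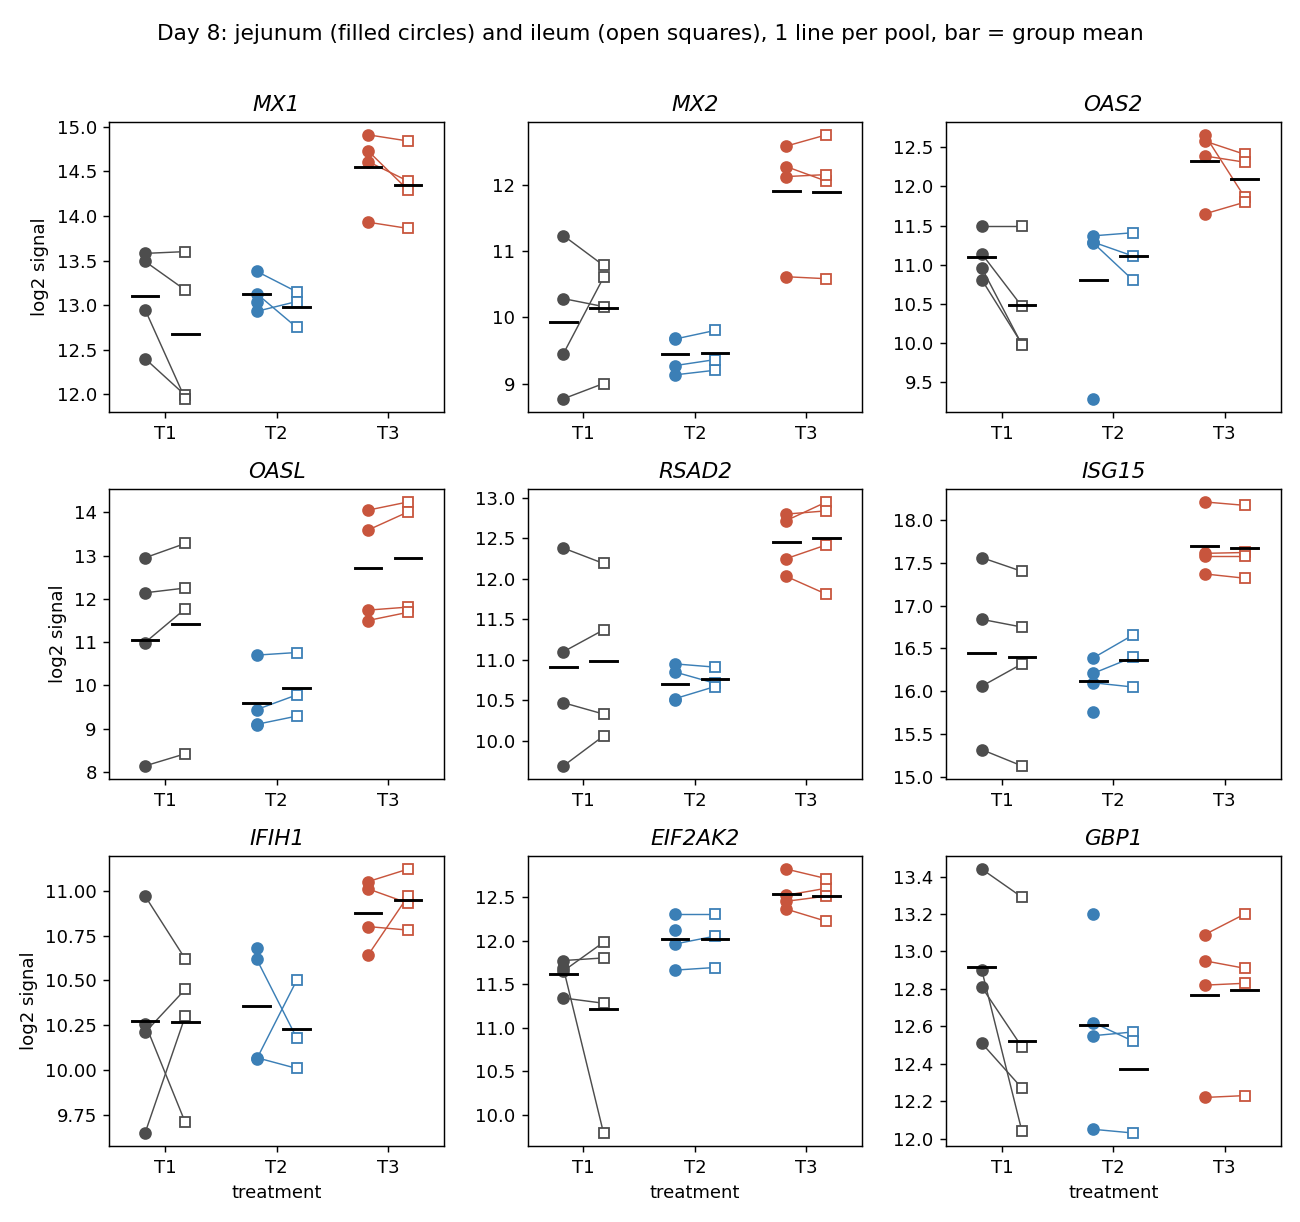
Log2 signal of each gene in each pool of day 8 (y axis, scale of the 23 tissue arrays) by treatment (x axis), with jejunum as filled circles, ileum as open squares, lines joining the tissues of 1 pool and bars at the group means. T2 pool 8 has no ileum value. The T3 pools lie above all T2 pools of the jejunum for 7 genes, while IFIH1 and GBP1 overlap.

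In blood of day 8, 0 of the 9 genes were called in any comparison of treatments (0.00347% of 28832 genes were called in T3 vs. T1, 0.00694% in T2 vs. T1 and 0% in T3 vs. T2). Values of blood are on a scale of their own and are not to be read against those of the tissues, and the T1 arrays lay on another slide than the T2 and T3 arrays. OAS2 was 4.29, 5.68, 4.69 and 5.15 in the T1 pools, 5.92, 6.23, 5.79 and 6.96 in T2, and 7.10, 6.96, 6.20 and 6.26 in T3. All T2 and all T3 pools lay above all T1 pools, by 1.27 ± 0.35 (adjusted p = 0.209) and 1.68 ± 0.35 (adjusted p = 0.435). These are means over 5 probes of OAS2, of which 1 was well above background in 0 of the 4 T1 pools (1.81 and 2.21), so no fold is given. The other 4 probes spanned 0.63 to 1.55 in T2 vs. T1 and 1.20 to 1.97 in T3 vs. T1.

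MX2 was 3.64, 5.02, 5.49 and 5.40 in the T1 pools of blood and 7.03, 6.08, 5.72 and 6.24 in T3. RSAD2 was 4.41, 5.23, 6.37 and 5.93 in T1 and 8.21, 6.66, 6.90 and 7.20 in T3. Both were without overlap in T3 vs. T1, with differences of 1.38 ± 0.44 and 1.76 ± 0.49 (adjusted p = 0.481 and 0.435), and with OAS2 they were the 3 of 9 genes without overlap, beside 1.33% of all genes. MX1 was 6.55, 7.25, 8.34 and 7.82 in T1, 7.33, 7.87, 7.99 and 9.57 in T2, and 8.11, 8.97, 8.39 and 8.54 in T3, where T1 pool 11 reached into the T3 pools (1.01 ± 0.48, adjusted p = 0.73). ISG15 was 13.37, 13.34, 15.11 and 14.26 in T1, 15.33, 14.69, 15.17 and 15.12 in T2 and 15.95, 14.05, 15.18 and 14.47 in T3, so that its groups overlapped.

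Of the sensors in blood, IFIH1 had a difference of -0.06 ± 0.35 and EIF2AK2 of 0.58 ± 0.27 in T3 vs. T1, and GBP1 was at 0.04 ± 0.26. OASL was well above background in 0 of 4 T1 pools, 2 of 4 T2 pools and 0 of 4 T3 pools, so no fold is given. The median of the 9 genes was 0.89 in T3 vs. T1 and 1.00 in T2 vs. T1, which share the T1 pools, and 0.31 in T3 vs. T2, with medians of all genes of -0.02, -0.01 and 0. In T2 vs. T1, only OAS2 of the 9 was without overlap, beside 3.18% of all genes.

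**Figure D2:**
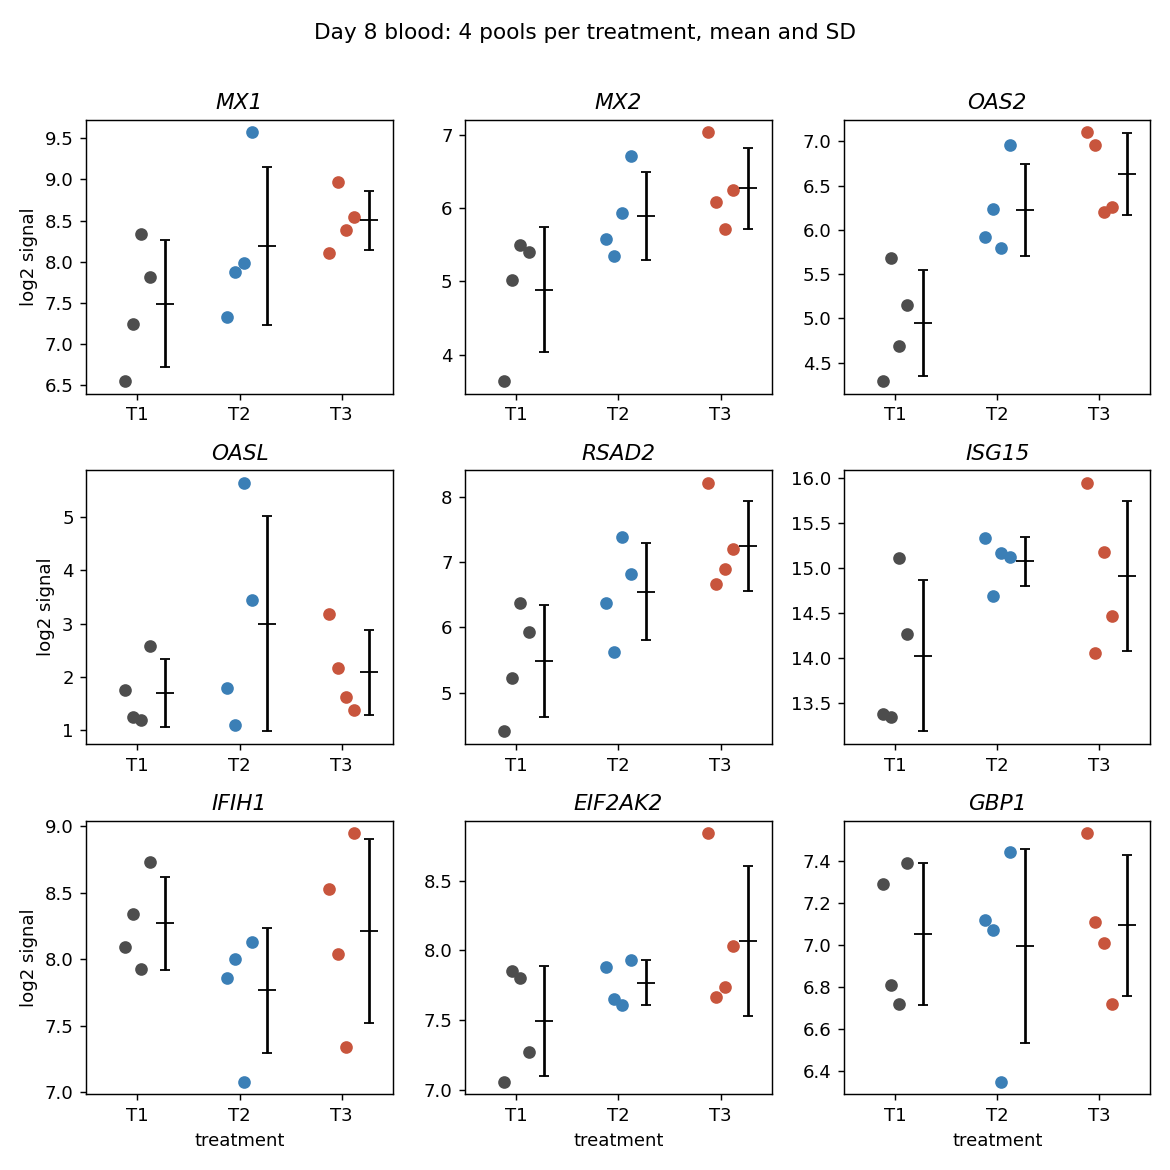
Log2 signal of each gene in the 4 blood pools per treatment of day 8 (y axis, scale of the 12 blood arrays) by treatment (x axis), with the mean and SD beside the points. The T1 pools of OAS2 reach 5.68 and lie below all T2 and T3 pools, and OASL is mostly at background.

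On days 55 and 176, 0 of the 9 genes were called between treatments in either tissue, and 0 of the 9 were called in the test of whether a treatment effect differed between ileum and jejunum. In that test 0.263% of all genes were called for T2 vs. T1 of day 55, 5.96% for T3 vs. T1 and 0.513% for T3 vs. T2, and 0.726%, 0% and 0.23% on day 176. Over all 18 tested comparisons, days 8, 55 and 176 together, 28 of 162 tests with limma had an unadjusted p under 0.05. The share of all genes was 1.27 to 30% in single comparisons. Of the 28, 7 each lay in T3 vs. T1 and T3 vs. T2 of the jejunum of day 8, from the animals behind the choice of MX1. Of the 162 tests 0 were called, and the lowest adjusted p was 0.0671. On day 55 this stood beside many calls among all genes, 12.2% in T3 vs. T1 of the jejunum, 3.32% in T2 vs. T1 and 0.86% in T3 vs. T2, and 14.8%, 0.08% and 8.26% in the ileum. The T3 arrays of day 55 lay on another slide than the T1 and T2 arrays. In the ileum of day 55 the T3 arrays had 42.4 to 52% of spots well above background, against 62.6 to 73.1% for T1 and T2. On day 176 the share of all genes called was 0% in T3 vs. T1 of the jejunum, 1.59% in T2 vs. T1 and 1.16% in T3 vs. T2, and 0.00354%, 0.0106% and 0% in the ileum.

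In the jejunum of day 55, IFIH1 was 9.26, 9.45, 8.97 and 9.08 in T1, 9.75, 9.75 and 9.73 in T2, and 9.41, 9.71, 9.80 and 10.01 in T3. All T2 pools lay above all T1 pools (beside 9.39% of all genes), and T3 overlapped with T1 in 1 pool, with a difference of 0.54 ± 0.19 in T3 vs. T1 (adjusted p = 0.0671). GBP1 was 13.92, 14.09, 13.47 and 14.48 in T1 and 15.12, 14.72, 14.56 and 14.54 in T3, without overlap (beside 10.5% of all genes), and differed by 0.74 ± 0.26 (adjusted p = 0.0706). With the sow sets as a block it was called (adjusted p = 0.0486), but the sets are listed for day 8 only, and the 4 pairs of T1 and T3 pools had a mean correlation of 0.009 here. The 3 probes of GBP1 disagreed, from -0.40 to 1.35. MX1 was 13.14, 13.22, 13.25 and 12.92 in T1 and 13.02, 13.87, 14.27 and 14.36 in T3, where T3 pool 1 lay among the T1 pools (0.75 ± 0.33, adjusted p = 0.149). In the ileum of day 55, EIF2AK2 differed by 1.08 ± 0.41 in T3 vs. T1 (adjusted p = 0.0825), which rested on T1 pool 9 at 8.98, and was 0.41 without it. On day 176 the lowest adjusted p of the 9 was 0.192, for MX2 in T2 vs. T1 of the jejunum (0.82 ± 0.38), where 2 genes, MX2 and EIF2AK2, were without overlap, beside 13.1% of all genes, and the median of all genes was 0.26.

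The other genes of the interferon pathway were taken from lists of interferons (4 of 12 with a probe), receptors (4 of 6), signalling genes (14 of 21), sensors (10 of 17) and other induced effectors (19 of 60). On day 8, 0 of 50 such genes were called in the jejunum and 0 of 48 in blood, in every comparison of treatments. In T3 vs. T1 of the jejunum, the retinoic acid inducible sensor DDX58 (RIG-I) was at 1.28 ± 0.44 and the effector IFIT3, which binds viral RNA, at 1.17 ± 0.38. The transcription factors IRF7, IRF9 and STAT2 were at 0.92, 0.67 and 0.25, and the chemokine CXCL10 at 0.04. The median of the 50 was 0.13, beside -0.01 for all genes. In the jejunum of day 55, 14 of 50 rose and 3 fell in T3 vs. T1, beside 12.2% of all genes called, with the adaptors MYD88 (2.63 ± 0.21, adjusted p = 7.37e-07) and MAVS (2.51 ± 0.22, adjusted p = 1.09e-06) highest and the kinase JAK2 (-0.62 ± 0.18) and the thiol reductase IFI30 (-0.69 ± 0.22) lowest. In T2 vs. T1, on 1 slide, 8 of 50 rose and 0 fell, beside 3.32% of all genes, MAVS by 2.07 ± 0.23 and MYD88 by 1.95 ± 0.23. In the ileum of day 55, 6 of 50 rose and 0 fell in T3 vs. T1, beside 14.8% of all genes called in either direction, with the peptide transporter TAP1 and the interferon IFNA1 at 1.12 each. In T3 vs. T2 of that ileum 1 rose, IFNA1 by 0.98 ± 0.26, and 1 fell, DDX58 by 1.63 ± 0.39 (adjusted p = 0.011), beside 8.26% of all genes. The T3 arrays of that ileum lay on another slide than those of T1 and T2. They had 42.4 to 52% of spots well above background, against 62.6 to 73.1%. The part of the slide and of these shares in the differences was not tested.

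Across ages, MX1, MX2, OAS2, RSAD2, ISG15, IFIH1 and EIF2AK2 had their lowest mean on day 176 in jejunum, while GBP1 and OASL had theirs on day 8. For OASL the means of day 8 and day 176 were close (10.47 and 10.57). Levels over all 79 arrays are on 1 scale and can be read within a gene only. MX1 in jejunum had a median of 11.63 on day 8 (10.48 to 13.26, n = 12), 11.85 on day 55 (11.51 to 13.21, n = 11) and 9.91 on day 176 (8.94 to 11.19, n = 11). In ileum its medians were 11.24 (9.65 to 13.13), 12.15 (11.24 to 13.02) and 10.74 (10.12 to 11.36), and in blood 10.32 (8.59 to 11.67). By medians the ileum of day 55 was the highest and the jejunum of day 176 the lowest, and no day 176 array of the jejunum reached the lowest day 55 array. Neighbours in that order overlapped.

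From day 55 to day 176, 8 of the 9 genes fell in jejunum, beside 29.8% of all genes called in either direction and 13% called lower. MX1 fell by 2.20 (± 0.25, 4.59-fold, adjusted p = 1.59e-10), RSAD2 by 2.53 (± 0.29, adjusted p = 2.71e-10), ISG15 by 2.80 (± 0.34, adjusted p = 1.02e-09) and OAS2 by 2.00 (± 0.25, adjusted p = 2.66e-09). OASL fell by 3.53 ± 0.57 and MX2 by 1.32 ± 0.28, while GBP1 fell by 0.81 ± 0.17 and EIF2AK2 was at -0.43 ± 0.20 (adjusted p = 0.0861). IFIH1 fell by 0.91, but was at -0.31 without jejunum T2 pool 8 of day 176, where it was at 3.32 (adjusted p = 0.227). The other 7 remained called without that pool, ISG15 at -2.25 and MX1 at -2.01. By the column names of the authors, 7 of the 8 were kept, and GBP1 was at -0.13 (adjusted p = 0.572). MX1, MX2, OAS2, OASL, RSAD2 and ISG15 kept their call under all settings tried.

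In ileum, 5 of the 9 genes fell from day 55 to day 176 (21.1% of all genes called, 9.41% lower). MX1 fell by 1.34 ± 0.25, ISG15 by 1.39 ± 0.34, OAS2 by 1.12 ± 0.25, RSAD2 by 0.97 ± 0.29 and MX2 by 0.76 ± 0.28, whereas OASL was at -1.24 ± 0.57 (adjusted p = 0.0997) and GBP1 at -0.11 ± 0.17. By the authors' names 4 of the 5 calls were kept, and MX2 was at 0.24 and not called. Those names give the scanner-named ileum of day 8 to day 55, so this repeats the scanner-named difference of day 176 against day 8. OASL (1.42, limma, adjusted p = 0.0357) and GBP1 (1.00) were then called higher on day 176. By the scanner names the call of MX2 was lost for 11 of the pools, each left out in turn. Its differences were -0.86 to -0.68 over all pools left out. The call of ISG15 was lost under scaling to the 75th percentile (-0.39). The calls of MX1, OAS2, RSAD2 and ISG15 were kept with each pool left out in turn, but 0 of the 5 were kept under all settings tried. Differences between the tissues in the change from day 55 to day 176 were tested after the values were seen. The change was lower in jejunum by 2.29 ± 0.81 for OASL, 1.55 ± 0.41 for RSAD2, 1.41 ± 0.48 for ISG15 and 0.70 ± 0.24 for GBP1 (adjusted p = 0.033, 0.00399, 0.0258 and 0.0244, with 21.1% of all genes called and 9.08% higher in ileum), and without jejunum T2 pool 8 of day 176 the difference of ISG15 was 0.86 (adjusted p = 0.0914). OASL lost its call for 5 of the pools, each left out in turn, and GBP1 without ileum T2 pool 7 or jejunum T2 pool 5 of day 55. By the authors' names, 3 of these 4 remained called (OASL 4.33, ISG15 1.57 and GBP1 1.12), RSAD2 was at 0.78 (adjusted p = 0.131), and MX1, MX2 and IFIH1 were called too (1.40, 1.83 and 1.20). For the change from day 8 to day 176, MX1 alone of the 9 was called, higher in ileum by 1.10 ± 0.35 (adjusted p = 0.0206, beside 14.3% of all genes called and 7.01% higher), and at 0.92 without jejunum T2 pool 8 of day 176 (adjusted p = 0.0596). By the authors' names MX1 was at 1.15 and called, as were GBP1, ISG15, MX2, OASL and RSAD2.

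**Figure D3:**
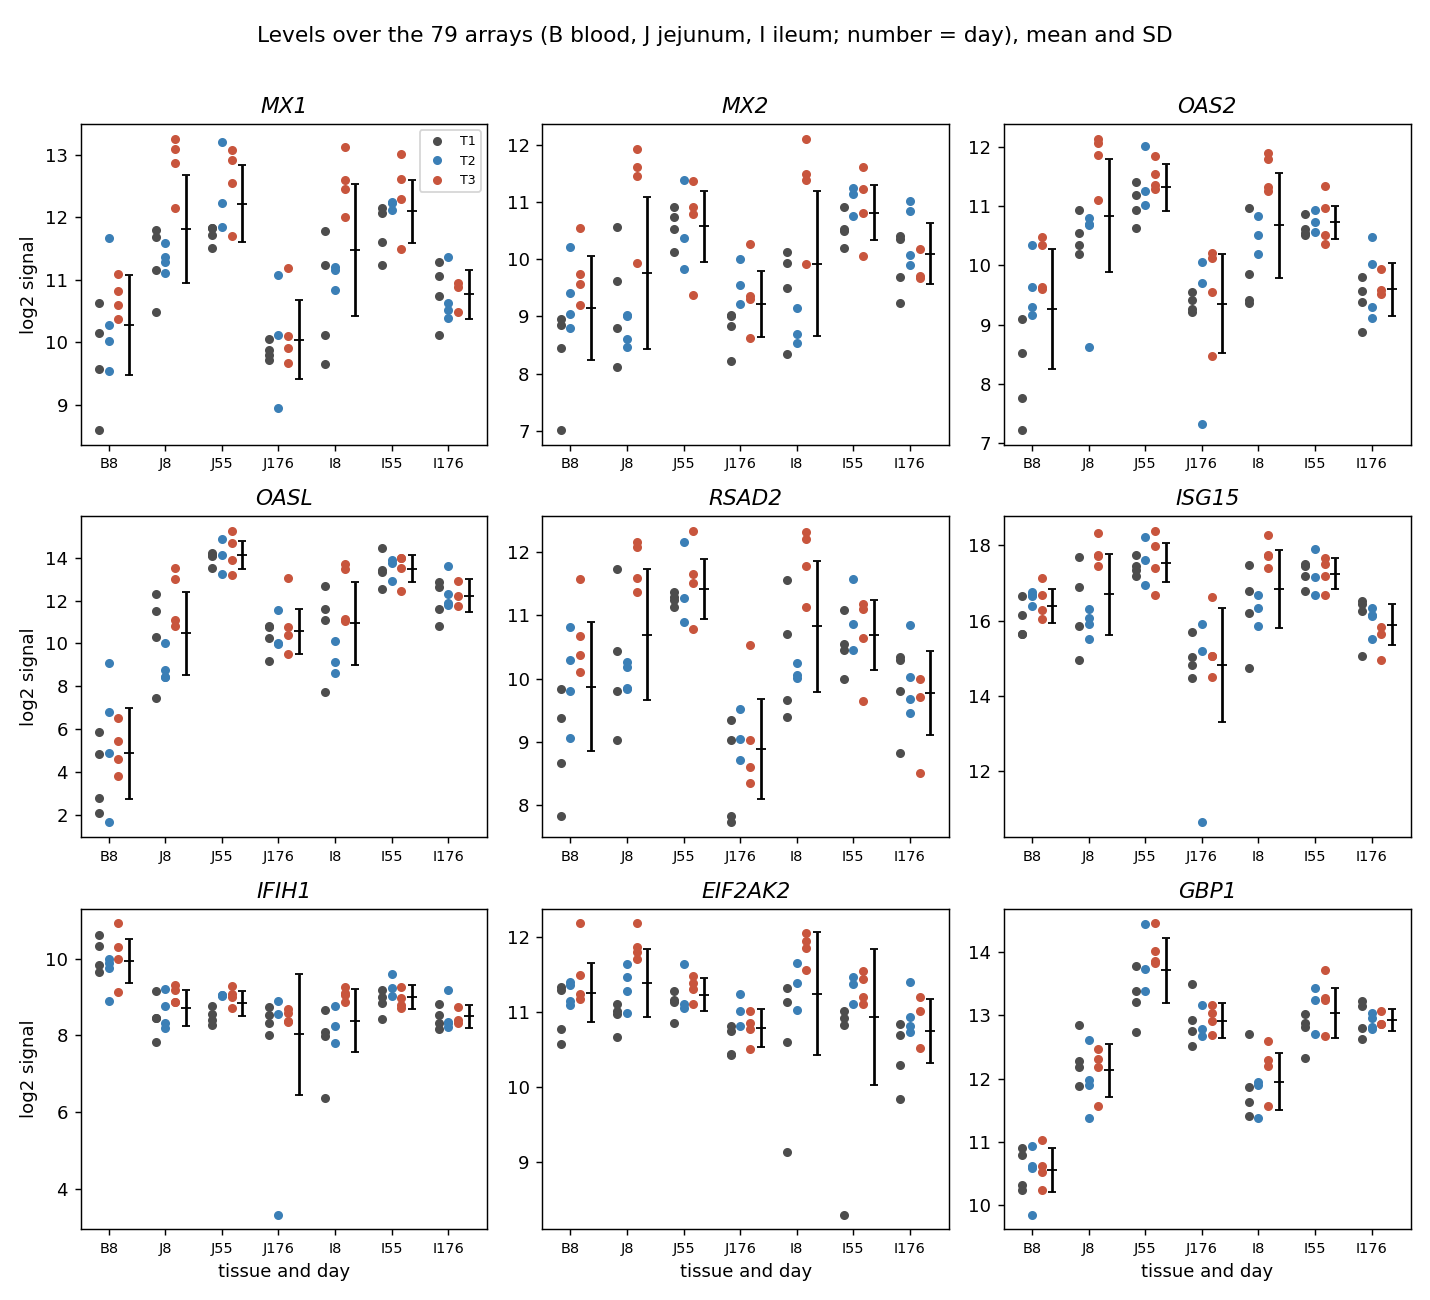
Log2 signal of each gene in every array (y axis, 1 scale for all 79 arrays) by tissue and day (x axis, B blood, J jejunum, I ileum), coloured by treatment, with the mean and SD. MX1, OAS2, RSAD2 and ISG15 are lowest on average in the jejunum of day 176 or in blood, and single arrays of ISG15 (10.64) and IFIH1 (3.32) of that jejunum group lie far below the others.

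Between day 8 and day 55, 5 genes rose in jejunum and 4 in ileum, and 0 fell (30.3% and 40% of all genes called, 14.9% and 20.4% higher). OASL rose by 3.62 ± 0.56 in jejunum (12.3-fold, adjusted p = 2.22e-07) and by 2.67 ± 0.57 in ileum, from medians of 10.57 and 11.11 to 14.10 and 13.49. GBP1 rose by 1.59 ± 0.16 and 1.11 ± 0.17, and MX2 by 0.81 ± 0.27 and 1.00 ± 0.28. RSAD2 and ISG15 rose in jejunum by 0.73 and 0.84, calls that were lost for 9 and 10 of the pools, each left out in turn, and MX1 rose in ileum by 0.67 ± 0.25. MX1 lost this call without T1 pool 11 of day 8 or T3 pool 2 of day 55, and MX2 its call in jejunum without T2 pool 7 of day 55 (adjusted p = 0.0608). By the column names of the authors, 0 of these 9 calls was kept in its direction, and GBP1 and RSAD2 in jejunum turned to -0.69 and -0.71. EIF2AK2 was at -0.16 and -0.29 and IFIH1 at 0.13 and 0.65, not called. By the scanner names, genes of lymphocytes rose beside them, all 6 of the T cell list in both tissues. CD8A rose by 3.37 ± 0.22 in jejunum and 3.01 ± 0.23 in ileum and CD3G by 3.00 ± 0.32 and 2.36 ± 0.33. CD79A rose by 5.82 ± 0.68 in ileum and was at 1.17 ± 0.66 in jejunum (adjusted p = 0.167). By the authors' names these comparisons set scanner-named ileum against jejunum, of day 55 for jejunum and of day 8 for ileum. There CD8A was at -0.28 and 0.09 and CD3G at -0.32 and 0.32, not called. CD79A was at 3.92, called, and -0.72. Of the T cell list only LCK (0.78) and CD4 (-0.60) were called, both in the jejunum comparison. The part of these cells in the rise of the antiviral genes was not tested.

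Against day 8, day 176 was lower for MX1, OAS2, RSAD2 and ISG15 in both tissues. In jejunum these differences were -1.78 ± 0.24, -1.51 ± 0.24, -1.80 ± 0.29 and -1.95 ± 0.33, where 42.1% of all genes were called, 18.9% lower and 23.2% higher. In ileum they were -0.67 ± 0.25, -1.06 ± 0.25, -1.03 ± 0.29 and -0.93 ± 0.34, where 41.7% were called, 19.5% lower and 22.2% higher. IFIH1 fell by 0.78 in jejunum, but was at -0.18 without T2 pool 8 of day 176 (adjusted p = 0.474), and lost its call for 2 further pools. In ileum the call of MX1 was lost without T1 pool 12 of day 8 (adjusted p = 0.0615) and that of ISG15 without T3 pool 2 of day 176 (adjusted p = 0.0525) and under scaling to the 75th percentile (-0.25, adjusted p = 0.525). GBP1 rose by 0.78 ± 0.16 in jejunum and 1.00 ± 0.17 in ileum, and OASL rose by 1.42 ± 0.57 in ileum, a call lost for 9 of the pools, each left out in turn. Under the names of the authors' table GBP1 turned to -0.81 in jejunum and was called lower. MX2 (-1.32) and OASL (-3.53) in jejunum and EIF2AK2 (-0.61) in ileum were then called lower too. For MX1 in ileum the fall was reversed with its brightest probe alone (0.17) and in the T1 pools alone (0.11). Under all settings tried, 3 of the 6 calls of jejunum (MX1, OAS2 and RSAD2) and 1 of the 6 of ileum (GBP1) were kept. Under the names of the authors' table, MX1, OAS2, RSAD2 and ISG15 were called lower on day 176 in both tissues, against day 55 and against day 8. Of these, ileum against day 55 repeats the scanner-named ileum against day 8. Jejunum against day 8 repeats the scanner-named jejunum against day 55. Neither is a further test. By the scanner names, lists of other cells also moved with age. The mean of the T cell list went from 6.27 on day 8 to 8.34 on day 55 and 8.16 on day 176 in jejunum, and from 6.16 to 8.24 and 8.47 in ileum. Against day 8, CD8A rose by 4.50 ± 0.22 and CD3G by 1.97 ± 0.32 in jejunum, and CD8A by 4.09 ± 0.23 and CD79A by 5.40 ± 0.68 in ileum. From day 55 to day 176 members of the T cell list went both ways in jejunum, CD8A by 1.13 ± 0.23, CD3D by -1.11 ± 0.34 and CD3G by -1.03 ± 0.33, all called. The mean of the epithelial list was 14.93, 15.43 and 15.10 in jejunum and 14.74, 14.46 and 14.14 in ileum. The part of these cells was not tested.

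For the rest of the pathway, 0 of 47 genes of the lists rose and 26 fell in jejunum from day 55 to day 176, which were 8 of 10 sensors, 10 of 18 other effectors, 5 of 13 signalling genes, 3 of 4 receptors and 0 of 2 interferons, beside 13% of all genes called lower. Named as by the authors, 2 rose and 21 fell. DDX58 fell by 2.60 ± 0.25 and IFIT3 by 2.11 ± 0.23, IRF7 by 1.53 ± 0.22, and CXCL10 and STAT2 by 0.98 and 0.86. In ileum 1 rose, the chemokine CXCL9 by 1.25 ± 0.31, and 7 fell, beside 9.41% of all genes called lower and 21.1% called in either direction. IFIT3 (-1.27 ± 0.23) and IRF7 (-1.07 ± 0.22) were lowest in ileum, while DDX58 was at -0.20. There 18 rose and 15 fell by the authors' names. From day 8 to day 55, 21 of 47 rose and 6 fell in jejunum and 18 rose and 6 fell in ileum, beside 30.3% and 40% of all genes called. By the authors' names 3 rose and 16 fell in jejunum and 0 were called in ileum, where 0.446% of all genes were called with limma, so that the direction of this change depends on the names. By the scanner names IFNG, interferon gamma itself and a product of lymphocytes, rose by 4.16 ± 0.32 in jejunum and 3.09 ± 0.33 in ileum, together with the T cell genes above, the guanylate-binding GBP2 by 3.80 ± 0.27 in jejunum and the chemokine CXCL11 by 3.42 ± 0.40 in ileum. The epithelial interferon IFNE fell by 1.02 ± 0.34 and 1.71 ± 0.35, and TYK2 by 1.06 ± 0.22 and 1.25 ± 0.22. By the authors' names IFNG was at -0.68 (adjusted p = 0.0965) and 0.47 (adjusted p = 0.594).

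Ileum and jejunum of the same day were set against each other for the 9 genes. On day 8, 0 were called, with differences of -0.38 (MX1) to 0.33 (OASL). The fit took the jejunum and ileum arrays of a pool as independent, although those of day 8 came from the same animals. Their values, with treatment means removed, had correlations of 0.99 for OASL, 0.97 for ISG15 and 0.95 for RSAD2, but -0.08 for IFIH1. The SE of 0.56 for OASL is not that of a paired difference, and a paired test was not run. Pool as a random block used a correlation of 0.019 for all genes. The 0 calls of day 8 do not show equal levels. On day 55, ileum was lower for RSAD2 (-0.71 ± 0.29, adjusted p = 0.0452) and GBP1 (-0.69 ± 0.17, adjusted p = 0.000621), beside 16.5% of all genes lower, in arrays of separate scan sessions. The call of RSAD2 was lost for 15 of the pools, each left out in turn, and GBP1 was at -0.58, short of the 1.5-fold threshold, without jejunum T2 pool 5. Under scaling to the 75th percentile ISG15 (-1, against -0.30), OAS2 (-0.85, against -0.60) and OASL (-1.12, against -0.62) were called lower in ileum as well. By the column names of the authors' table, 3 genes were called lower in ileum on day 8 (GBP1, MX2 and OASL) and 4 on day 55 (GBP1, MX1, MX2 and OASL), so that GBP1 on day 55 was the 1 call shared by both sources. On day 176, whose arrays shared a session and have the same names in both sources, ileum was higher for 5 of the 9 (11.3% of all genes higher), ISG15 by 1.11 ± 0.34, MX1 by 0.73 ± 0.25, RSAD2 by 0.84 ± 0.29, MX2 by 0.83 ± 0.28 and OASL by 1.66 ± 0.57. Without jejunum T2 pool 8, MX2 (0.77, adjusted p = 0.0445) and OASL (1.57, adjusted p = 0.046) remained called, and ISG15 (0.56, adjusted p = 0.129), MX1 (0.54, adjusted p = 0.111) and RSAD2 (0.77, adjusted p = 0.0541) did not. RSAD2 lost its call for 6 of the pools, each left out in turn. Under all settings tried, 0 of the 5 calls of day 176 were kept.

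Other cells differed between these tissues on day 176 as well. The neutrophil list (S100A8, S100A9, S100A12 and MMP9) spanned 6.50 to 10.49 in ileum and 5.03 to 8.81 in jejunum, the myeloid list 11.17 to 11.98 and 8.95 to 11.04, and the epithelial list 13.78 to 14.39 and 14.72 to 15.25. Their part in the differences was not tested. Of the other pathway genes, 9 of 47 were higher and 2 lower in ileum, beside 11.3% of all genes called higher and 22.7% called in either direction. CXCL11 (2.32 ± 0.40) and the RNA sensor TLR7 (1.64 ± 0.20) were highest, and IFNE (-0.97 ± 0.35) lowest.

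**Figure D4:**
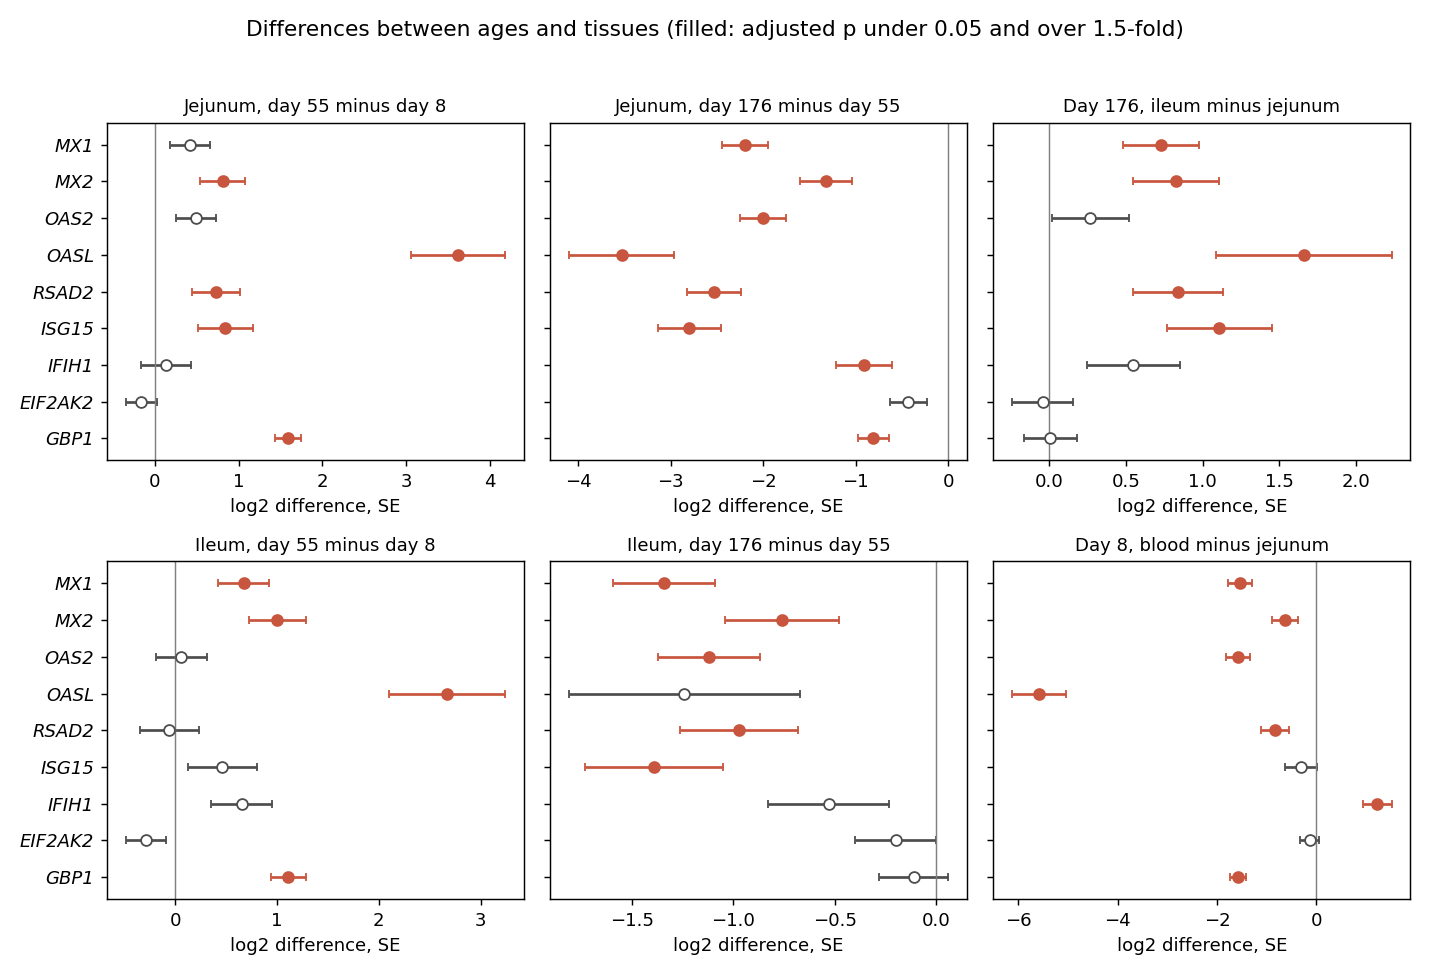
Differences of each gene (log2, x axis, with SE) between ages, tissues, and blood and jejunum, where filled points passed an adjusted p of 0.05 and 1.5-fold. In jejunum 8 of 9 genes are filled and below 0 from day 55 to day 176, with OASL at -3.53, and the OASL point of blood minus jejunum (-5.59) lies on a blood value that was mostly at background.

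Between blood and intestine on day 8, 6 of the 9 genes were lower in blood and 1 was higher, against both jejunum and ileum, beside 75.6% and 74.2% of all genes called, with 33.4% and 32.8% lower and 42.2% and 41.4% higher. The median of all genes was 0.26 in both comparisons, and blood and tissue arrays were read in different sessions. MX1 in blood stood at -1.54 ± 0.24 against jejunum and -1.16 ± 0.24 against ileum, GBP1 stood at -1.58 ± 0.16 and -1.38 ± 0.16, and RSAD2 at -0.83 ± 0.28 and -0.90 ± 0.29. The 2 probes of RSAD2 disagreed (-0.13 and -1.53 against jejunum, -0.13 and -1.66 against ileum), and with its brightest probe alone it was not called in either comparison. By the authors' names all 7 calls of each comparison were kept. MX2 was at -0.62 ± 0.26, a call lost for 8 of the pools, each left out in turn, and at -0.69 ± 0.27, a call lost without blood T1 pool 9 (adjusted p = 0.0611). OASL was at least 11.7-fold lower in blood than in jejunum and at least 14.7-fold lower than in ileum, since it was above background in few blood pools (measured mean 4.88, against 10.47 and 10.80, adjusted p = 1.92e-14 and 6.27e-15). The bound sets each blood array to its lowest probe well above background.

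IFIH1, by its 1 probe that passed, was the gene higher in blood, by 1.23 ± 0.29 and 1.57 ± 0.30. OAS2 was at -1.58 ± 0.24 and -1.40 ± 0.24, but its 5 probes disagreed, from -3.35 to 0.61 against jejunum. EIF2AK2 was at -0.13 and 0, not called. ISG15 was at -0.31 ± 0.32 and -0.40 ± 0.33, not called, and turned to 2.04 and 1.97, called, when arrays were scaled to their 75th percentile in place of the quantiles, so that no direction is given for it. Under that scaling 25% of the calls were higher in blood, against 14.3%.

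The genes whose pattern was most like that of MX1 were looked for among 2277 genes with a symbol, as a description. Over the 21 group means, the sensor DHX58 (LGP2) had the highest correlation with MX1 (0.96), followed among the antiviral genes by OAS2 (0.95), RSAD2 (0.92), ISG15 (0.86), MX2 (0.81), OASL (0.66), EIF2AK2 (0.53), GBP1 (0.44) and IFIH1 (0.19), where the median gene was at 0.17. The 4 other genes next in likeness were USP18 (0.88), which removes ISG15 from proteins, PRMT5 (0.82), PKMYT1 (0.82) and SNRPA (0.81). Over the deviations of the 79 arrays from their group means, DHX58 (0.75), IFIT3 (0.68), LOC733579 (0.62), DDX58 (0.61) and USP18 (0.59) were nearest outside the 9, which ranged from 0.73 for RSAD2 to -0.10 for GBP1, beside a median of 0.04. These points share arrays, scan sessions and, for the group means, ages and tissues.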

How the data were processed

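The authors deposited, per the file headers, the intensity of each spot from Agilent Feature Extraction 10.7.3.1, background subtracted, linear and not scaled between arrays. Their deposited log2 table, quantile normalized, served only to match its columns to arrays (correlation above 0.9), since its tissue columns of days 8 and 55 carry other names than the scanner files.

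Signals below 1 were set to 1 before log2. Control spots and those with a non-uniformity or population flag were dropped, arrays of a fit were quantile normalized, and probes had to pass the 20th percentile on every array of at least 1 group. RefSeq gave a symbol to 5461 of 43603 probes (12.5%), and values of a gene's probes were averaged. Fits used limma 3.58.1 (R 4.3.3), over the 12 blood arrays and the 23, 22 and 22 tissue arrays of days 8, 55 and 176 for treatments, and over all 79 arrays, with treatments weighted equally, for ages and tissues. A call needed a Benjamini-Hochberg adjusted p below 0.05 and a fold above 1.5. The main fits took arrays of the same pool from different tissues as independent. The number of arrays limits the precision, and p-values measure the spread between pools. Scripts were tested on simulated data.

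The members, gene lists and tests were chosen with earlier results of these data known. Beside the 9 genes, the text names pathway genes called with the 2 largest rises or 2 largest falls, a few fixed pathway genes, and the 5 most like MX1. Values of 1 fixed pathway gene are not reported here. The study lists the same 4 sows for pools 1, 5 and 9, and so on, of day 8, which pairs them, and lists none for later days. Deviations of paired pools had a mean correlation of 0.031 to 0.149 in jejunum and 0.08 to 0.124 in blood, and the alternatives included this block.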

Additional observations from a re-analysis of the deposited data

Results flagged for a closer look

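Of 144 groups of 4 pools and a gene, 3 held a pool far from the others, by its gap to the nearest pool as a share of the group's range, above Dixon's critical value, and chance gives such a pool in about 1 in 20 groups. OAS2 in the jejunum of day 8 was 9.29 in T2 pool 8, with the nearest T2 pool at 11.28. The array of that pool matched no column of the authors' table. EIF2AK2 in the ileum of day 55 was 8.98 in T1 pool 9, with the nearest at 11.57. IFIH1 in the ileum of day 176 was 10.73 in T2 pool 5, with the nearest at 9.93.

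The change with age differed between ileum and jejunum, by a test of the difference itself, for 5 genes. From day 8 to day 176 the change of MX1 was higher in ileum by 1.10 (adjusted p = 0.0206), which was 0.92 without jejunum T2 pool 8 of day 176 (adjusted p = 0.0596). From day 55 to day 176 the differences were 2.29 for OASL, 1.55 for RSAD2, 1.41 for ISG15 and 0.70 for GBP1, and without that pool ISG15 was at 0.86 (adjusted p = 0.0914). These are values of arrays whose tissue names of days 8 and 55 differ between the deposited sources, and by the authors' names RSAD2 was at 0.78 and no longer called, and OASL, ISG15, GBP1 and MX1 remained called (4.33, 1.57, 1.12 and 1.15). The part of the scan sessions was not tested.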

How the results depend on the processing

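Over all comparisons, 0 treatment, 34 age, 7 tissue and 14 blood calls were made for the 9 genes. Treatment calls were 1 under scaling to the 75th percentile (IFIH1, jejunum day 55, T3 vs. T1, 0.59, adjusted p = 0.0396), 1 with an intensity trend and 1 with the sow sets as a replicate block (GBP1, same comparison, adjusted p = 0.0486), a pairing listed for day 8 only, and the pairing changed no other call. Without 1 pool at a time treatment calls ranged from 0 to 2, age calls from 31 to 35, tissue calls from 5 to 9 and blood calls from 12 to 14. The 2 calls came without jejunum T3 pool 1 of day 55, and 1 each without jejunum T1 pool 12 and ileum T1 pool 11 of that day. With the T1 pools alone 17 age and 0 tissue calls were left, with fewer samples. Names of the authors' table, an alternative chosen after seeing the data, gave 12 tissue calls (6 shared with the 7), 31 age calls (22 shared with the 34 in direction, 3 in the opposite direction) and 15 blood calls (14 shared). Directions reversed for MX1 in ileum from day 8 to day 176 (0.17 with the brightest probe, 0.11 in T1 pools alone) and for GBP1 in jejunum of day 55, T3 vs. T1 (-0.4 with the brightest probe), and the cause was not tested. Of the tissue calls 5 were higher and 2 lower in ileum (71.4% higher), against 5 and 5 under scaling to the 75th percentile (50%) and 5 and 1 with the brightest probe (83.3%), so that the number called lower changed. Of the blood calls 2 were higher and 12 lower in blood (14.3% higher), against 4 and 12 under that scaling (25%). Slide as a random block could not be estimated, since each group lay on 1 slide, names of a gene column were not run, and normexp used the median signal.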
